A study of Rattus norvegicus with 108 samples.

Results

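Ttr encodes transthyretin, and it was followed as 1 gene of the 19127 in count tables of droplet RNA profiles from rat dentate gyrus. It was selected on measured values, namely its summed counts in Microglia2 cells of the dorsal region, which differed between fluoxetine and water although the groups overlapped, so that its treatment contrast in that region is given as a description with no test. The tables held 1748 Ttr unique molecular identifiers (UMIs, 1 per captured transcript) over 3347 cells. Of these, 1713 lay in 1289 cells of the dorsal dentate gyrus (dorDG) and 35 in 2058 cells of the ventral dentate gyrus (venDG).

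Transthyretin is a secreted carrier of thyroxine that also transports retinol by binding retinol-binding protein. Its main sources are the liver and, in the brain, the epithelium of the choroid plexus, which makes cerebrospinal fluid. The choroid plexus hangs in the ventricles beside the hippocampus, and its epithelial cells carry Ttr as one of their most abundant transcripts. Neurons, glia and endothelial cells of the dentate gyrus are not counted among its main sources.

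Male Long-Evans rats, 2 months old at the start, drank fluoxetine, a serotonin reuptake inhibitor, at 18 mg per kg body weight (FT) or water alone (Sham) for 6 weeks, and both regions were micropunched from them. Each replicate is a pool of tissue from several animals, and dorDG FT had 4 replicates (numbered 1, 2, 4 and 5), whereas dorDG Sham, venDG FT and venDG Sham had 5 each. Libraries were 10x Genomics 3′ profiles of cells or nuclei, since the labels speak of nuclei and the study's methods of both, and neither says which reaction held which. Replicates held 42 to 384 cells and 220162 to 1523537 UMIs, and p-values measure the spread between these pooled replicates only. Between any pair of the 27 reactions at most 1 cell barcode was shared, and dorDG FT replicate 4 and dorDG Sham replicate 4 shared 0.

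Ttr was not spread over the replicates but held by a few of them. The level, in Ttr UMIs per 10000 UMIs with all cells of a replicate summed, was 0 in dorDG FT replicates 1 and 2, 21.8 in replicate 4 and 0.994 in replicate 5. In dorDG Sham it was 0.0181, 0.0173 and 0.0204 in replicates 1 to 3, 5.80 in replicate 4 and 0 in replicate 5. Both treatments therefore had replicates at or near 0 and a replicate far above them, and the groups overlapped. In venDG FT the levels of replicates 1 to 5 were 0, 0.0217, 0.0131, 0.0681 and 0.0761. In venDG Sham they were 0.00908, 0.148, 0.0454, 0.0787 and 0.0358. All 10 venDG replicates lay below 0.2, and those numbered 4, which share a number with the dorDG replicates of highest Ttr, were not set apart from the rest.

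**Figure D1:**
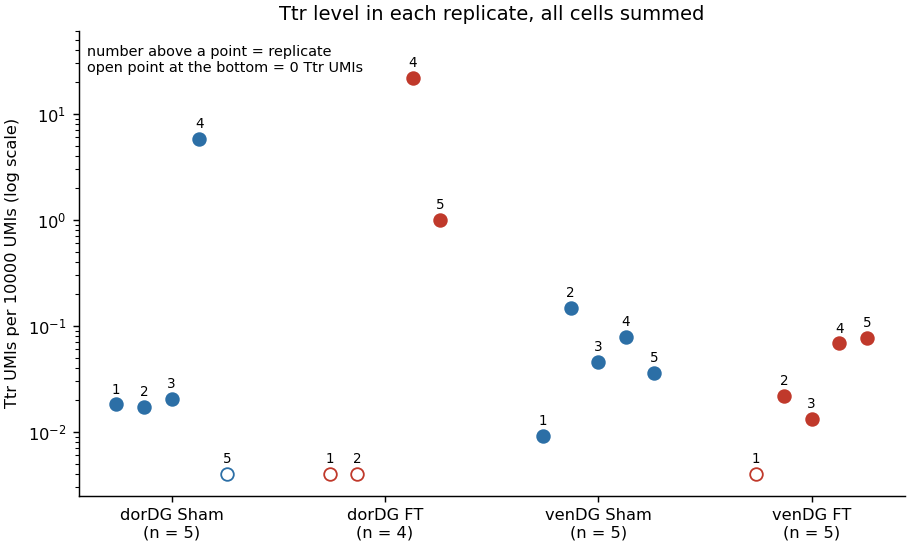
Ttr UMIs per 10000 UMIs (log axis) in each replicate of the 4 groups, blue for Sham and red for FT, with the replicate number above each point and open points for replicates with 0 Ttr UMIs. Replicates 4 of dorDG FT (21.8) and dorDG Sham (5.80) and replicate 5 of dorDG FT (0.994) stand above the other 16, the highest of which is 0.148.

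Replicates 4 and 5 of dorDG FT and replicate 4 of dorDG Sham held 97.8% of all Ttr UMIs and 99.8% of those in dorDG. Their counts were 1298, 58 and 353 UMIs, with 95% exact Poisson intervals of the level of 20.6 to 23.0, 0.754 to 1.28 and 5.21 to 6.44 (counting error only). The 3 intervals overlapped neither each other nor that of the next replicate in order, venDG Sham replicate 2 with 10 UMIs (0.0707 to 0.271). From there on each replicate's interval overlapped that of the next, so neighbours in the order were not resolved at this depth. More distant replicates could be, since venDG Sham replicate 2 lay above the interval of venDG FT replicate 1 (0 to 0.0352). These 16 replicates held 39 Ttr UMIs in 33 of 2982 cells. The 4 replicates with 0 Ttr UMIs allowed levels of up to 0.0403 (dorDG FT replicate 1), 0.0339 (dorDG FT replicate 2), 0.0555 (dorDG Sham replicate 5) and 0.0286 (venDG FT replicate 1), taking 3 counts as the limit.

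The level of dorDG FT replicate 4 was 3.76 times that of dorDG Sham replicate 4 and 22.0 times that of dorDG FT replicate 5. Genes were then ranked by how far they set this library apart. Among the 915 genes with at least 100 UMIs in dorDG FT replicate 4, its level was divided by the highest level of the 6 dorDG replicates with almost no Ttr, after adding 0.1 to both. Ttr came first at 182-fold, and the next gene was Gem, a small GTP-binding protein, at 2.30-fold. This order is a description, since Ttr was known to be high there and the 6 replicates of the divisor were taken for their low Ttr. Genes under 100 UMIs, such as Sostdc1 with 8 UMIs there and 0 in the 6, were not ranked.

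The share of cells with at least 1 Ttr UMI was 96.2% of 131 cells in dorDG FT replicate 4, 71.1% of 135 cells in dorDG Sham replicate 4 and 40.4% of 99 cells in dorDG FT replicate 5. With each cell thinned to 1000 UMIs, and shallower cells left out, these shares became 85.4% of 121 cells, 42.5% of 114 cells and 8.93% of 97 cells. In the other 6 dorDG replicates, 4 of 924 cells held a Ttr UMI. Ttr UMIs were thus found under nearly all cell barcodes of the highest replicate and under few of the replicates without raised Ttr. None of the types is a main source of Ttr, so no share of cells gives a background, and a UMI does not show that the cell itself expressed the gene.

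Depth, ribosomal share and blood RNA were set beside these levels. The median UMI count of a cell was 4345, 3020 and 6001 in dorDG FT replicate 4, dorDG Sham replicate 4 and dorDG FT replicate 5, against 2282 to 5492 in the other 16. Hemoglobin transcripts made up 208, 109 and 73.6 UMIs per 10000 in the 3 replicates, within the 0.648 to 592 of the others. Cells with under 2% of UMIs from ribosomal protein genes made up 16.0%, 35.6% and 16.2% of them, against 19.2 to 73.0% in the others. Both FT replicates thus lay below the other 16 in that share, and its part in the Ttr level was not tested.

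To ask where among the cells Ttr lay, levels were taken within each of the 3 replicates by the authors' 12 dorDG types. Several type names were checked first against a marker of each. C1qa, a complement gene of microglia, was at 30.6 UMIs per 10000 in both Microglia types and 0.722 elsewhere, and Pdgfra, a receptor of oligodendrocyte precursors, at 5.15 in OPC against 0.128. Aqp4, the astrocyte water channel, was at 10.6 in AstroSub1 and 0.290 elsewhere. Prox1, a transcription factor of granule neurons, was at 0.901 in Granule and 0.758 elsewhere, Gad1, the GABA-synthesizing enzyme, at 0.296 in InhibNeuron and 0.190 elsewhere, and Cldn5 of endothelial junctions at 0.0885 in Endothelial and 0.0312 elsewhere. These last 3 markers were low in all types, Cldn5 being found in 3.33% of Endothelial cells, so they say little about the names. No other marker was used in this check, and the 3 names are used here as the authors' names only.

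Ttr was present in all 12 types of dorDG FT replicate 4 and of dorDG Sham replicate 4, and in 10 of 12 types of dorDG FT replicate 5. Over the 9 types of dorDG FT replicate 4 with at least 5 cells, 87.5 to 100% of the cells of a type held Ttr. The level was 17.8 in Microglia1 (141 UMIs in 16 cells), 18.1 in Oligodend1 (133 in 15), 18.5 in Microglia2 (71 in 11), 20.6 in Endothelial (164 in 24), 21.5 in Oligodend2 (135 in 12), 21.8 in Mossy (148 in 12), 22.0 in Granule (84 in 9) and 23.1 in OPC (182 in 14). These 8 types thus lay within 17.8 to 23.1, a 1.30-fold range. AstroSub1 stood above them at 45.6 (154 UMIs in 11 cells, interval 38.7 to 53.5).

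The AstroSub1 value rested on 1 cell. That cell held 93 Ttr UMIs among 4874 UMIs, or 191 per 10000, and the next highest AstroSub1 cell held 13. Without it, the other 10 AstroSub1 cells had 61 Ttr UMIs and a level of 21.1 (interval 16.2 to 27.1), inside the range of the other types. The cell carried 12 UMIs from 8 other genes of a choroid plexus list, including 1 of Kcnj13 (a potassium channel of that epithelium), 1 of Otx2 (a transcription factor of it) and 2 of Igf2 (insulin-like growth factor 2), and 6 UMIs of astrocyte markers. Of the 12, 5 were of Cd9 and Enpp2, which other cell types also express. The cells with the next highest counts were a Mossy cell with 40 Ttr UMIs and an InhibNeuron cell with 34, whose levels of 20.7 and 23.3 per 10000 were near the 21.8 of the replicate. The Mossy cell carried 21 UMIs from 6 other list genes among 19314 UMIs, with 7 of Cd9, 6 of Enpp2 and 1 of Kcnj13. It also held 54 UMIs of endothelial markers. The InhibNeuron cell carried 5 UMIs from 5 list genes (1 of Folr1) among 14609 UMIs. Both cells were deeper than the AstroSub1 cell, so these counts are not at equal depth, and the origin of the 3 cells was not tested.

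In dorDG Sham replicate 4 the 10 types with at least 5 cells had levels from 1.65 in BergGlia (1 UMI in 6 cells) to 6.50 in AstroSub1 (21 in 15). Levels were 6.38 in ExcitNeuron (65 in 9), 6.18 in Mossy (25 in 8), 6.05 in Microglia1 (31 in 11), 6.00 in Endothelial (63 in 32), 5.98 in InhibNeuron (80 in 16), 4.72 in Microglia2 (5 in 7), 4.41 in Granule (18 in 13) and 3.62 in Oligodend1 (15 in 10). The Poisson interval of each of these 10 types included the replicate's own level of 5.80. The same held in dorDG FT replicate 5 for 9 of 9 types, whose levels were 0.516 to 1.44. For 6 of 9 types of dorDG FT replicate 4 the interval included the level of 21.8, and 20.4 was the replicate's level without the highest cell. The intervals of Microglia1 (15.0 to 21.0) and Oligodend1 (15.2 to 21.5) lay below 21.8 but included 20.4. That of AstroSub1 lay above 21.8 and, without the highest cell, included 20.4 (16.2 to 27.1). That cell was left out for its Ttr count.

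**Figure D2:**
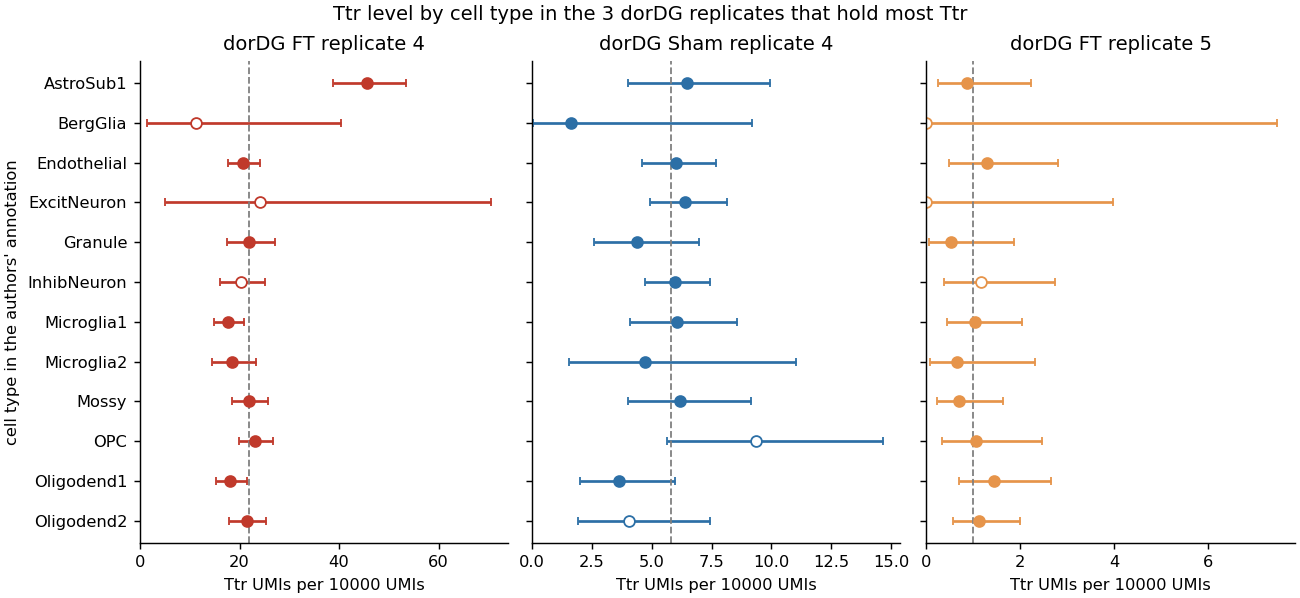
Ttr UMIs per 10000 UMIs by the authors' cell type in the 3 dorDG replicates with most Ttr, each on its own axis, with 95% exact Poisson intervals (counting error only), a dashed line at the replicate's level and open points for types with under 5 cells. In dorDG FT replicate 4 AstroSub1 lies at 45.6 and the other types with 5 cells at 17.8 to 23.1, and in dorDG Sham replicate 4 the levels of types with 5 cells run from 1.65 to 6.50.

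The evenness over types was described by the chi-square of the Ttr counts per degree of freedom, which is near 1 where types differ by counting error alone. Against a common level per 10000 UMIs it was 0.888 over 10 types in dorDG Sham replicate 4 and 0.485 over 9 types in dorDG FT replicate 5. In dorDG FT replicate 4 it was 12.6 over 9 types, and 1.19 without the highest cell. Against a common number of Ttr UMIs per cell, it was 18.0, 1.06 and 10.3 in the same order (9.44 for dorDG FT replicate 4 without the highest cell). Ttr thus deviated less from a constant share of a cell's UMIs than from a constant count per cell in dorDG Sham replicate 4. The same held in dorDG FT replicate 4 without its highest cell, but not while that cell was kept. In dorDG FT replicate 5, with 53 Ttr UMIs in these types, both values were near or below 1, so it cannot separate the 2.

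Marker genes of the same libraries gave the scale of uneven expression. The chi-square per degree of freedom in dorDG FT replicate 4 was 177 for C1qa, 64.0 for Aqp4 and 37.4 for Pdgfra. For Hbb, hemoglobin beta of red blood cells, it was 6545, with 1066 UMIs per 10000 in Granule and 1.83 in Microglia2. Genes with few UMIs were near 1 (Gad1 at 1.03 with 8 UMIs and Prox1 at 0.765 with 21). Of the genes with at least 100 UMIs in the 2 replicates numbered 4, 10 of 971 were more even than Ttr in Sham, and 554 of 819 in FT. The median gene was at 6.99 in Sham and 6.65 in FT. Without the cell of highest Ttr in each, 8 of 923 genes were more even than Ttr in Sham, and 26 of 806 in FT. That cell was picked for its Ttr count, whereas the other genes kept their own highest cells. The choice of cell thus favours Ttr in this second order, and no rank of Ttr is read from it.

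A cell's Ttr count rose with its total count. In a Poisson regression of the Ttr count on the log of the cell's UMIs, a slope of 1 means a fixed share of UMIs and a slope of 0 a fixed count per cell. The slope was 0.986 in dorDG FT replicate 4 (131 cells), 1.02 in dorDG Sham replicate 4 (135 cells) and 1.15 in dorDG FT replicate 5 (99 cells). Spearman's rho of Ttr count and total count, across cells that share a library, was 0.836, 0.821 and 0.469. In the third of cells with the lowest totals of dorDG FT replicate 4 the level was 20.5 per 10000 at 3.39 Ttr UMIs per cell, and in the third with the highest totals 20.0 at 15.5 per cell.

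**Figure D3:**
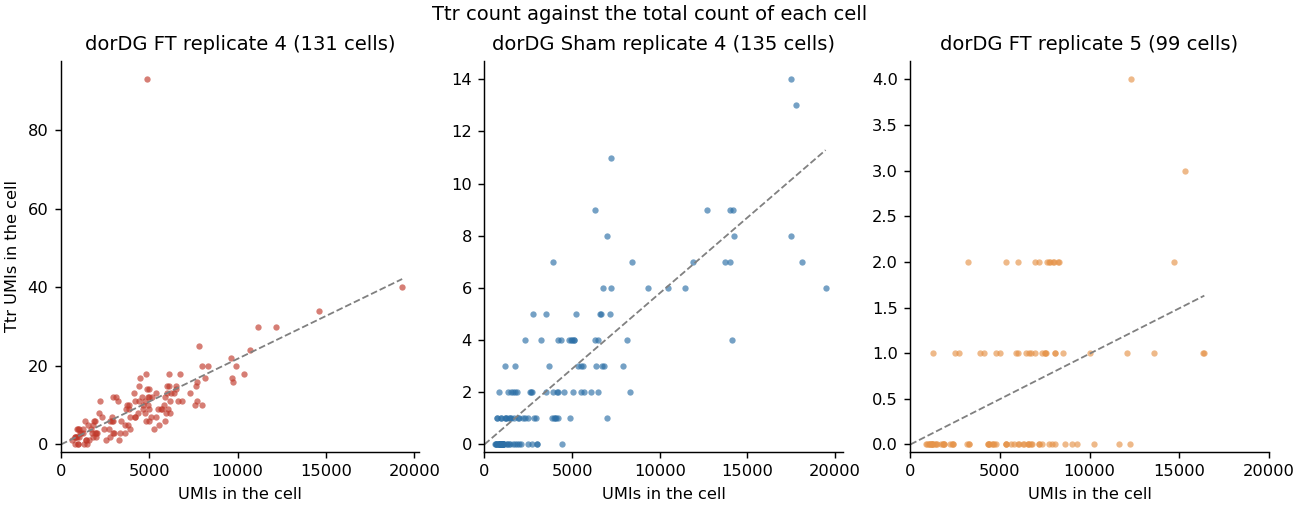
Ttr UMIs of each cell against its total UMIs in the 3 dorDG replicates with most Ttr, with a dashed line at the replicate's mean share. Counts rise along the line in all 3 panels, and in dorDG FT replicate 4 a cell with 93 Ttr UMIs at 4874 total UMIs lies far above it.

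Cells with low and with ordinary ribosomal shares carried similar levels. The level in dorDG FT replicate 4 was 23.4 (interval 19.8 to 27.5) in 21 low-ribosomal cells and 21.6 (20.4 to 22.9) in 110 others. In dorDG Sham replicate 4 it was 5.59 (4.57 to 6.77) in 48 low-ribosomal cells and 5.90 (5.19 to 6.67) in 87 others. The intervals overlapped in both replicates.

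Between the 2 replicates numbered 4, the ratio of FT to Sham level in the 7 types with at least 5 cells in both was 2.94 (Microglia1) to 7.03 (AstroSub1, with the highest cell), with a median of 3.93. For Microglia2, the type in which Ttr was singled out, the ratio was 3.93, close to the 3.76 of all cells. Microglia2 had 71 Ttr UMIs in dorDG FT replicate 4, 5 in dorDG Sham replicate 4, 2 in dorDG FT replicate 5 and 0 in the other 6 replicates. In each of the 3 replicates with raised Ttr, the Poisson interval of Microglia2 included the level of the whole replicate. The intervals were wide in dorDG Sham replicate 4 (1.53 to 11.0, on 5 UMIs) and dorDG FT replicate 5 (0.0778 to 2.32, on 2 UMIs). The Microglia2 ratio rests on the same 5 Sham UMIs. Because Ttr was selected on Microglia2 counts, these values are a description.

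The treatment contrast in dorDG is given as values. The mean level was 5.70 ± 10.8 (SD, n = 4) in FT and 1.17 ± 2.59 (n = 5) in Sham, each SD exceeding its mean. On the scale of log2(level + 0.1), FT exceeded Sham by 1.48, and the difference was -0.17 without dorDG FT replicate 4 and 0.97 without both replicates numbered 4. In edgeR fits to counts summed per replicate, the log2 fold change of FT over Sham was 2.44 over all cells and 3.43 in Microglia2. It was 3.43 in Oligodend1, 3.26 in Granule, 2.83 in AstroSub1, 2.07 in Microglia1, 2.02 in Endothelial and 1.55 in Mossy. Without dorDG FT replicate 4 every one of these 8 values was below 0, at -1.81 over all cells and -1.35 in Microglia2. Without both replicates numbered 4 it was 4.28 over all cells and 3.01 in Microglia1, where the FT counts came from dorDG FT replicate 5. The other 6 fits were also above 0, but their Sham replicates then held 0 Ttr UMIs, so that these values depend on the prior count. In Microglia2, 2 Ttr UMIs were left in FT and 0 in Sham.

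The fits of OPC and Oligodend2 left out dorDG Sham replicate 4, which had 4 cells of each, so that their Sham replicates held 0 Ttr UMIs. Against 3 counts over the Sham group, FT was at least 33.7-fold higher in OPC and at least 43.2-fold higher in Oligodend2. The Sham cells left out held 19 Ttr UMIs in OPC and 10 in Oligodend2, at levels of 9.37 and 4.05 per 10000. Without dorDG FT replicate 4 the bounds were 1.22-fold in OPC and 4.04-fold in Oligodend2. The size of the contrast in these types therefore turned on that replicate and on the minimum of 5 cells.

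At the study's limits (adjusted p of at most 0.2 and a log2 fold change of at least 0.32 in size), Ttr was within the limits of the Microglia2 fit, where 0.0581% of 3441 genes were called. It was also within them in Oligodend1, where 6.15% of 3693 genes were called, and in none of the other 7 types fitted, where 0 to 0.029% of genes were called (0.0232% in AstroSub1). Over all dorDG cells 28.6% of 4274 genes were called, Ttr not among them. Without dorDG FT replicate 4, 0 genes were called over all cells by edgeR, with 523 at an unadjusted p under 0.05. This loss was not particular to that replicate. The count was also 0 without dorDG FT replicate 5, Sham replicate 3 or Sham replicate 5, and 1 without Sham replicate 1. It was 488 and 963 without FT replicates 1 and 2, and 1989 and 1833 without Sham replicates 2 and 4. Because the contrast was used to single out Ttr, nothing is read from these calls.

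The venDG replicates played no part in singling out Ttr, so its treatment contrast there was tested. The level was 0.0358 ± 0.0341 per 10000 (SD, n = 5) in FT and 0.0633 ± 0.0532 (n = 5) in Sham. The difference of -0.25 in log2(level + 0.1) was within the spread between replicates (two-sided exact permutation test over 252 splits, p = 0.373). The added 0.1 exceeded most of these levels, which shrinks the difference on that scale. Without the log the difference was -0.0275 per 10000 (exact permutation p = 0.373). The counts behind the contrast were 15 Ttr UMIs among 5345208 UMIs in FT and 20 among 3167426 in Sham. Of the 29 venDG cells with Ttr, 26 held 1 UMI, and the highest held 4.

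With a mean below 0.5 UMIs per 10000, Ttr was not among the 4079 genes tested by edgeR over all venDG cells, of which 0% were called. At an unadjusted p under 0.05 there were 236 such genes, and DESeq2 called 18. With no filter on low counts the edgeR log2 fold change of Ttr was -0.97 (adjusted p = 0.859 over 19011 genes, n = 5 per group).

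Regions were compared within each treatment. In Sham, dorDG exceeded venDG by 0.67 in log2(level + 0.1) (two-sided exact permutation p = 0.976, adjusted p = 0.976 over the 2 region contrasts). In FT it exceeded venDG by 2.40 (exact permutation p = 0.206, adjusted p = 0.413). These tests were unpaired, and paired by replicate number the Sham contrast gave p = 0.9375 (exact sign-flip permutation test). Neither difference was larger than the spread between replicates, and the Sham difference turned to -0.47 without dorDG Sham replicate 4. The 6 dorDG replicates without raised Ttr had levels of 0 to 0.0204, below 7 of the 10 venDG replicates. These 6 were grouped by their low Ttr, and no venDG replicate held more than 10 Ttr UMIs. No region difference is therefore read from this order.

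For 8 replicates, those numbered 1 and 2 in each group, the labels name 2 reactions. The first reactions, by order of name, held 15 Ttr UMIs in 4 of 8 reactions, and the second held 2 in 1 of 8. Their totals were 5258213 and 2265324 UMIs, and the share of low-ribosomal cells differed with the order too, at 5.10 to 18.8% in first and 78.3 to 97.5% in second reactions. The mean paired difference of the second from the first was -0.25 in log2(level + 0.1) (two-sided exact sign-flip permutation test, p = 0.3125). No replicate with raised Ttr has a second reaction, so levels could not be compared between reactions there.

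Other genes of the choroid plexus were counted in the same replicates. Of a list of 30 choroid plexus genes, 27 were in the tables, and without Ttr the summed level of 26 was 12.8 per 10000 in dorDG FT replicate 4, 9.25 in dorDG Sham replicate 4 and 12.03 in dorDG FT replicate 5. The other 16 replicates ranged from 7.45 to 16.3 with a median of 8.94. Most of that sum came from Cd9, a tetraspanin of many cell types, and Enpp2, which makes lysophosphatidic acid and is also an oligodendrocyte gene. Both were within the range of the other replicates, Enpp2 at 2.71 against 0.863 to 3.63.

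Of the 26, 6 had their highest level of all 19 replicates in dorDG FT replicate 4, and all 6 were sparse. Over all 19125 genes with any UMI, 782 (4.09%) had their highest level there, against 23.1% of the list. Sostdc1, a secreted BMP and Wnt antagonist, had 8 UMIs there, 2 in dorDG Sham replicate 4 and 0 in the other 17 replicates. Folr1, the folate receptor of the plexus epithelium, had 9 and 2 UMIs in these replicates and 6 in all others. Cldn2, a claudin of leaky epithelia, had 2 UMIs in dorDG FT replicate 4 and 0 elsewhere, Otx2 had 2 there and 1 elsewhere, and Steap1, a metalloreductase, had 5 there, 0 in dorDG Sham replicate 4 and 19 in the others. Igf2 had 15 and 10 UMIs, at 0.252 and 0.164 per 10000, against at most 0.180 in the 16 others. Of these genes, Sostdc1, Folr1, Cldn2 and Otx2 were at 0 UMIs in dorDG FT replicate 5.

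The remaining list genes were mixed. Igfbp2, an IGF-binding protein, had 9, 6 and 1 UMIs in dorDG FT replicate 4, dorDG Sham replicate 4 and dorDG FT replicate 5, Prlr, the prolactin receptor, had 12, 10 and 6, Trpv4, a cation channel, had 6, 5 and 3, and Calml4, a calmodulin-like protein, had 7, 5 and 4. These 4 followed the order of the Ttr level, within the range of the other 16 replicates. Clic6, a chloride channel protein, had 3, 3 and 8 UMIs in the same replicates, and Kl, which encodes klotho, had 2, 3 and 3. Kcnj13 had 2, 0 and 1. Aqp1, a water channel of the plexus, had 0, 2 and 1. Car12, a carbonic anhydrase, was lowest of all 19 replicates in dorDG FT replicate 4 (0.235 per 10000).

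Markers of the plexus were also sought together in single cells. Of 6 defining markers (Folr1, Clic6, Kcnj13, Kl, Cldn2 and Otx2), no cell of 3347 held more than 2, and 7 cells held 2, with 1 of them in dorDG FT replicate 4. That 1 was the AstroSub1 cell with 93 Ttr UMIs, which held 1 UMI each of Kcnj13 and Otx2. Of 8 ependymal genes, which mark the ciliated lining of the ventricles, 7 were in the tables and 0 had their highest level in dorDG FT replicate 4. Their summed level was 0.588, 0.526 and 0.600 per 10000 in the 3 replicates, against 0.138 to 0.746 in the others. Rarres2, which is also on the choroid plexus list, made up most of these sums at 0.538, 0.493 and 0.531. Whether RNA released from the choroid plexus gave the Ttr of these replicates was not tested, as droplets without cells were not analysed here.

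**Figure D4:**
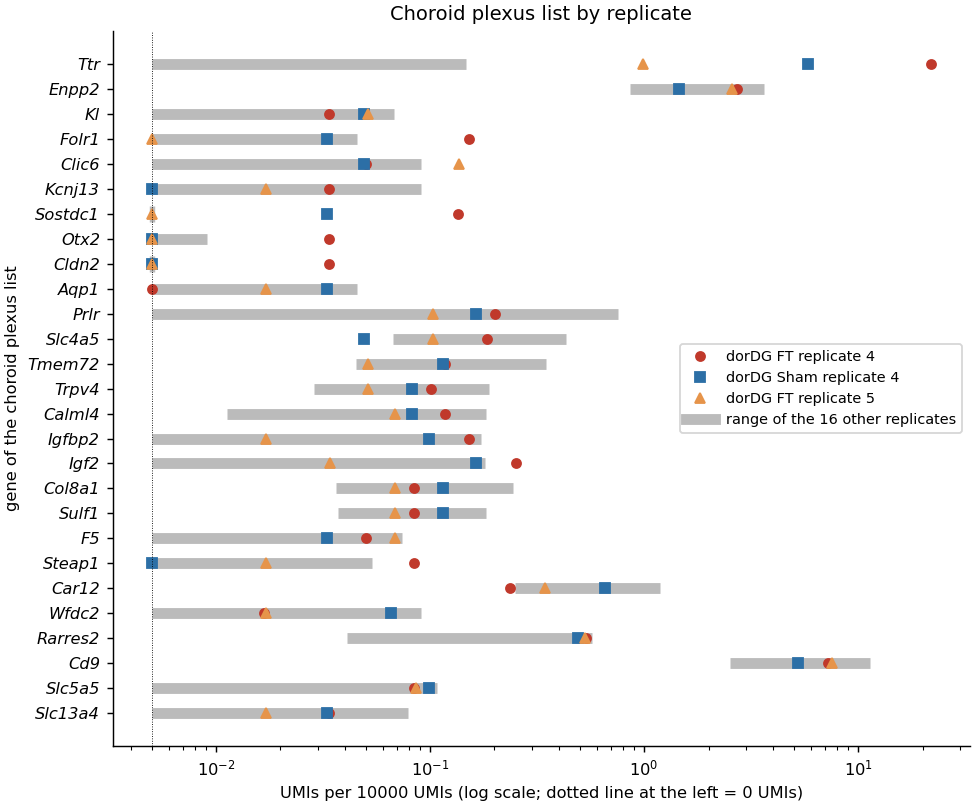
Level of each gene of the choroid plexus list in UMIs per 10000 UMIs (log axis, dotted line for 0 UMIs) in dorDG FT replicate 4 (circles), dorDG Sham replicate 4 (squares) and dorDG FT replicate 5 (triangles), with a grey bar for the range of the other 16 replicates. Ttr lies outside the bar in all 3, Sostdc1 (8 and 2 UMIs) in the replicates numbered 4, and Enpp2 lies inside it.

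Genes of thyroid hormone and retinol handling, the pathways that transthyretin serves, were listed as well. Of 14 genes, 11 were in the tables, and 0 had their highest level in dorDG FT replicate 4. Rbp4, the retinol-binding protein that transthyretin carries, had 4, 9 and 4 UMIs in the 3 replicates with raised Ttr. Alb, the liver's albumin, had 2, 1 and 2. The receptor genes Thra and Thrb were at 0.874 and 0.319 per 10000 in dorDG FT replicate 4, the lowest of the 19 replicates, whereas in dorDG Sham replicate 4 they were at 1.91 and 0.740. In dorDG Sham replicate 4, Thra, Rbp4 (0.148) and Hr of the same list (0.0986, 6 UMIs) had their highest level of the 19. The highest of the 16 replicates without raised Ttr were 1.86, 0.0678 and 0.0985. In venDG, 5 of these 11 genes and 3 of the 27 choroid plexus genes passed the filter, 0 were called in either direction, and the medians of their log2 fold changes were 0.01 and 0.22 against -0.0071 over all genes tested.

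Likeness to Ttr over the 19 replicates was ranked by Spearman's rho among 3719 named genes whose mean level was 0.5 per 10000 or more. The highest were Psmc5, an ATPase of the proteasome (0.631), Ly86, a secreted partner of the Toll-like receptor homologue CD180 (0.589), Atp6v0e2, a subunit of the vacuolar proton pump (0.584), Pacsin2, an endocytic membrane-bending protein (0.581), and Lasp1, an actin-binding protein (0.572). Their spans were small beside that of Ttr, with Psmc5 running from 0.387 to 0.941 per 10000. These values share libraries and are the highest of many ranked genes. None of the 5 is on the choroid plexus list, of which Rarres2, a secreted chemerin precursor, had a rho of 0.544 and Sostdc1 of 0.535.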

How the data were processed

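The values deposited for each gene in each cell are raw UMI counts, which the authors made with Cell Ranger 2.1.0 from 10x 3′ v2 libraries, and the submitters' processing notes name the build rn5 and Seurat 3. The authors filtered cells and gave dorDG types in an annotation table of other per-cell information. Their log-normalized venDG table was not used. Groups came from the labels (108 libraries, 27 reactions, 19 replicates). Of the venDG columns, 170 with an unexplained second suffix, 167 of them repeated barcodes, were left out. They held 0 Ttr UMIs. Nothing more was filtered, and no doublet caller was run.

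Ttr, the gene lists and the tests were chosen with earlier results of these data known. Levels are Ttr UMIs per 10000 UMIs, summed per replicate, and tests used log2(level + 0.1). Gene-wide tests used edgeR 4.0.16 (quasi-likelihood, TMM) in R 4.3.3 on replicates with at least 5 cells of a type and genes whose mean was 0.5 UMIs per 10000 or more, with DESeq2 1.42.0 as an alternative. Calls took an adjusted p (Benjamini-Hochberg) of 0.2 or less and a log2 fold change of at least 0.32 in size. Intervals are 95% exact Poisson intervals, and the limit of a count of 0 is 3 counts. Fits were tested on simulated counts. Of the list genes not found under their symbol, 1 was in the tables under an older name and was not used. Genes named are Ttr, the list members, a marker for most classes and the 5 genes most like Ttr. The marker of another class is not reported here. Gem was named after its value was seen. Same-numbered replicates of dorDG and venDG Sham deviated together over genes (correlation 0.198 to 0.561, 5 of 5 pairs above 0.1). The main tests between groups were nevertheless unpaired, and tests paired by replicate number are given as alternatives.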

Additional observations from a re-analysis of the deposited data

Results flagged for a closer look

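The Ttr level of dorDG FT replicate 4 (21.8 UMIs per 10000) stood apart from the other 3 replicates of its group by 0.954 of the group's whole range, above Dixon's 95% limit for 4 samples. The level of dorDG Sham replicate 4 (5.80) stood apart from the other 4 by 0.996 of the range, above the limit for 5 samples. The lowest replicate of either group and both ends of the venDG groups stayed under their limits. Chance alone gives such a gap in about 5% of groups, but that rate does not apply here, because Ttr was selected on these dorDG values, and the gaps are a description.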

How the results depend on the processing

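Of 140 recomputed values, 120 were counted as unchanged, 6 moved and 14 reversed. For tested contrasts, unchanged means the same direction and side of 0.05, whatever the size. For example, regions in FT went from 2.40 to 0.745 without dorDG FT replicate 4. Values without a test had also to stay near the main value in size, apart from levels on another scale. Leaving out each replicate in turn gave a dorDG FT minus Sham difference of -0.17 to 2.62 in log2(level + 0.1), and dorDG minus venDG differences of -0.47 to 1.0 in Sham. In alternatives chosen after seeing the data, the last was -0.42 without the replicates numbered 4 (0.83 in FT and 0.97 for dorDG FT against Sham, both in the main direction), and without those numbered 4 and 5 differences were -0.41 in Sham, -0.15 in FT and -0.25 for dorDG FT against Sham. Also added after seeing the data, the edgeR log2 fold change of Ttr over all dorDG cells ran from -1.81 (without FT replicate 4) to 8.55 (without Sham replicate 4). Without FT replicate 4 it was -2.12 in AstroSub1, -2.16 in Endothelial, -1.95 in Granule, -1.43 in Microglia1, -1.35 in Microglia2, -3.05 in Mossy and -0.0045 in Oligodend1. These reversals follow from which replicates hold Ttr. The chi-square per degree of freedom was 1.19 in dorDG FT replicate 4 without its highest cell, and per cell 18.0 in dorDG Sham replicate 4 and 1.06 in dorDG FT replicate 5. Genes called over all venDG cells were 0 by edgeR, 18 by DESeq2 and 3 with no filter.

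With the replicate block, the differences were -0.25 (venDG FT against Sham, exact permutation p = 0.375), 1.22 (dorDG), 0.67 (regions in Sham, exact permutation p = 0.9375) and 2.34 (regions in FT, exact permutation p = 0.5), with 0 venDG genes called. Over all dorDG cells the block left 0 genes called, against 1221 without it. Without pairing, second against first reactions gave -0.25 (exact permutation p = 0.231). Sign-flip tests over 4 or 5 pairs cannot reach 0.05, so these p-values say nothing about stability. Correlations of same-numbered replicates were -0.224 to 0.362 (dorDG FT and Sham), -0.164 to 0.265 (venDG) and 0.0963 to 0.353 (regions in FT). Ttr in venDG cell clusters was not run, because 35 UMIs put it below the filter.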
